A study of Homo sapiens with 15 samples.

Results

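The survival of motor neuron (SMN) complex was followed here through the messenger RNAs of its 9 subunits, GEMIN5, SMN1, GEMIN2, DDX20 (also called Gemin3), GEMIN4, GEMIN6, GEMIN7, GEMIN8 and STRAP (also called unrip). All 9 were found by symbol among the 21519 genes of the count table, and 217 of 721551 splicing events carried their names. SMN2, a near-identical copy of SMN1, was read beside it. The material was HEK-293, an established human embryonic kidney line. Control cells are labelled untreated, and no mock transfection is described for them. GEMIN5 cells carried the plasmid pcDNA3Xpress-Gemin5, delivered with Lipofectamine LTX 24 h before harvest, so plasmid, reagent and GEMIN5 cannot be told apart in any comparison with control cells. The protocol describes cycloheximide, which stops ribosomes on their mRNA, before lysis. The cytoplasmic lysate is called Input, and pooled gradient fractions 8 to 12, which carry mRNAs bound by several ribosomes, are called polysomes. Both gave polyadenylated RNA for stranded sequencing libraries. Control cells gave 4 libraries per fraction, and GEMIN5 cells gave 3 from Input and 4 from polysomes. The study asked whether splicing changes that follow altered GEMIN5 levels are found in translated mRNA. The samples are described as independent, without saying how cultures were kept apart, so a p-value here refers to the spread between these libraries only.

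The SMN complex builds spliceosomal small nuclear ribonucleoproteins in the cytoplasm. GEMIN5 recognises the small nuclear RNA (snRNA), SMN and GEMIN2 hold the Sm proteins, and the remaining subunits stabilise the assembly while the Sm ring is closed around the RNA. GEMIN5 is also found outside the complex, on ribosomes, where it is known to affect translation.

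Total counts were 11191417 to 18407933 per library. Levels are given as CPM, counts per 1000000 counted reads, after TMM scaling, a library scaling that assumes most genes stay level. The Input GEMIN5 libraries stood apart: ribosomal protein mRNAs took 54.9 to 59.6% of their counts, against 33.9 to 35.1% in Input control and 19.2 to 24.8% in polysomes. Their TMM factors were 0.354 to 0.488, against 0.971 to 1.03 in Input control. With library size as the only scaling, the median gene in Input moved by −1.29 on the log2 scale, so Input values below are relative to the median gene unless stated otherwise. HEK-293 marker genes were detected in every library (5 or 6 of 6). Their summed share of counts was 0.0188 to 0.0241% in Input GEMIN5 against 0.0684 to 0.0895% in Input control, and its part in the Input results was not tested. A list of 9 hepatocyte markers summed to 1042 to 1506 counts, with all 9 detected, in 2 Input control and all 4 polysome control libraries. It summed to 7 to 47 counts in the other 9 libraries. In the 7 GEMIN5 libraries ALB had at most 3 counts, and APOA1 up to 44. These transcripts cannot be told apart from the groups in polysomes. For Input, gene counts of the members and SMN2 were refitted without those 2 libraries, and each result whose call changed is given below. Pathway lists, spliced reads, the summed SMN copies, the SMN1 share and splicing events were not refitted in this way. The 6 blood cell markers summed to 19 to 134 counts, with 86 to 134 in polysome control and at most 51 elsewhere, and PTPRC had at most 8 in any library.

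In Input, 3 of the 7 testable members other than GEMIN5 were higher in GEMIN5 cells, namely GEMIN6, GEMIN2 and GEMIN4. SMN1 and STRAP were lower, and DDX20 and GEMIN8 did not pass the test. With library size only, 0 were higher and 6 lower, beside 605 and 9270 of all genes, and GEMIN2, GEMIN4 and GEMIN8 changed sign. With TMM scaling 51.5% of all 12197 genes tested passed (27.1% higher, 24.3% lower), so passing was common among all genes. In polysomes none of these 7 passed in edgeR's quasi-likelihood test, where 0.402% of all genes did. Of all genes there, 0.0820% were higher. None of the 7 had an unadjusted p under 0.05, and DESeq2 called 0 as well. The plot of levels by library shows the 3 Input GEMIN5 libraries away from the other groups for SMN1, GEMIN2, GEMIN4, GEMIN6 and GEMIN7.

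**Figure D1:**
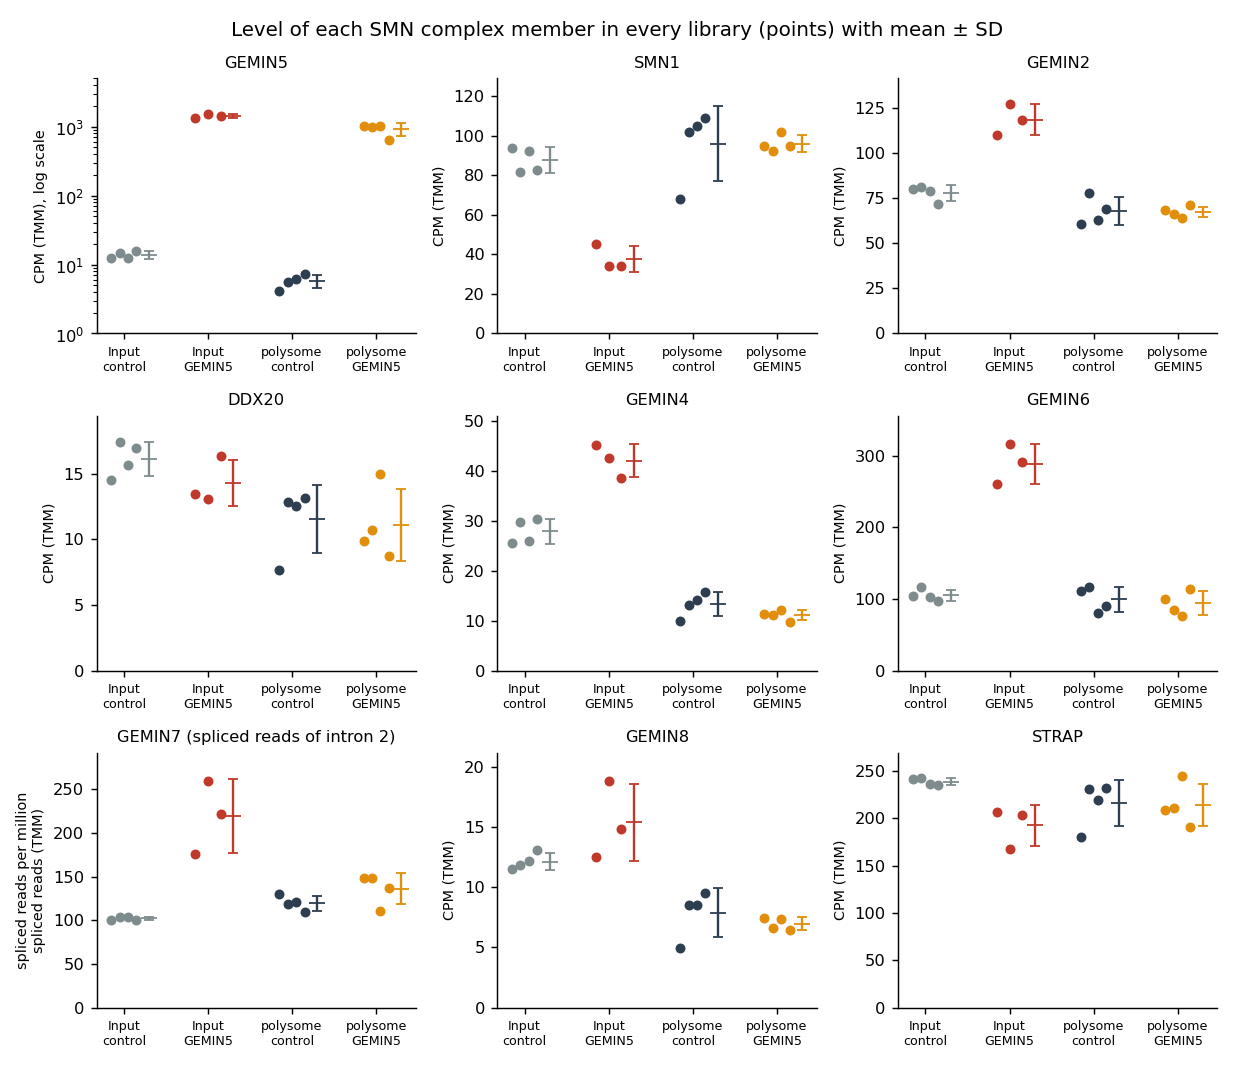
Level of each member in all 15 libraries, in CPM after TMM scaling (log axis for GEMIN5 only; for GEMIN7, spliced reads of its intron 2 per 1000000 spliced reads). Points are libraries, and bars are the mean ± SD of each group. GEMIN5 sits between 4.19 and 15.9 CPM in control and between 647 and 1543 CPM in GEMIN5 libraries.

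GEMIN5 (ENSG00000082516, GRCh38 chr5:154887411-154938211, minus strand), the snRNA-recognising subunit and the gene on the plasmid, was measured first. Input control libraries held 12.4, 14.8, 12.6 and 15.9 CPM, and Input GEMIN5 libraries 1319, 1543 and 1422 CPM. Polysome control libraries held 4.19, 5.57, 6.25 and 7.18 CPM, and polysome GEMIN5 libraries 1035, 982, 1034 and 647 CPM. Every GEMIN5 library lay far above every control library of its fraction, and the fourth polysome GEMIN5 library lay below the other 3 of its group. Fewer cells holding the plasmid and less plasmid RNA per cell cannot be told apart in such bulk samples. The lower level of the fourth library was also uneven along the transcript. Its spliced reads over introns 19 to 27 exceeded those over introns 1 to 9 by a factor of 6.05. This factor was 3.61, 3.26 and 2.7 in the other polysome GEMIN5 libraries. The cause of the lower level was not tested. The log2 fold change was 6.68 (SE 0.21, edgeR adjusted p = 1.22e-13) in Input and 7.31 (SE 0.22, edgeR adjusted p = 3.46e-14) in polysomes. In untreated cells the endogenous GEMIN5 mRNA was lower in polysomes than in Input by 1.26 on the log2 scale (SE 0.18, edgeR adjusted p = 2.62e-05), and this fall kept its direction with library size only.

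The deposited junction reads show where along the transcript the GEMIN5 reads came from. The principal transcript GEMIN5-201 has 28 exons in 5397 nt, of which 4524 nt are coding, from exon 1 to exon 28. The first and the last junction are shown because they mark the ends between which the reads are compared. In each line the capitals mark the first 15 bases of the downstream exon, and the sequences were read 5′ to 3′ from GENCODE release 29 transcripts (GRCh38).
GEMIN5 exon 1 to exon 2 junction: cacccccgtttcgagTCATAGGAGAGTTGG
GEMIN5 exon 27 to exon 28 junction: cctgagagcattaagGCCTGGCCCTTCCCA
The first pair of exons is parted by intron 1 (chr5:154937186-154937967), 5155 nt of spliced sequence from the 3′ end, and the second by intron 27 (chr5:154888378-154889320), 962 nt from it.

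Over intron 27, the 3 Input GEMIN5 libraries together held 6019 spliced reads and the 4 polysome GEMIN5 libraries 4723. Over intron 1 they held 37 and 871. In control cells these junctions had 46 and 6 reads in Input, and 25 and 2 in polysomes. The GEMIN5 mRNA of transfected cells was thus read mainly near its 3′ end in Input and along its whole length in polysomes. In RPM, spliced reads per 1000000 counted reads, the ratio of GEMIN5 to control cells in Input was 145 (95% exact interval 109 to 199) over intron 27 and 6.85 (2.87 to 19.9) over intron 1. In polysomes it was 176 (119 to 273) and 407 (112 to 3360). Intervals cover counting error only, since PCR copies are not independent molecules.

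The same contrast held when all 27 introns were read in 3 sections of 9, a division chosen after the reads were seen. Over introns 1 to 9, the Input GEMIN5 libraries had 7.33, 3.13 and 3.14 RPM, and the polysome GEMIN5 libraries 144, 156, 195 and 59.7. Over introns 19 to 27 they had 301, 308 and 290.0 RPM in Input, and 518, 510, 527 and 361 in polysomes. In RPM the polysome libraries were above the Input libraries in both sections without overlap, by a far larger factor at the 5′ side. Over intron 27 alone the order was reversed, with 102.6, 118.8 and 116.7 RPM in Input GEMIN5. The polysome GEMIN5 libraries had 91.3, 89.1, 83.5 and 76.2 RPM there. RPM carries no TMM scaling, and the sections were not compared after TMM scaling. The reads of introns 19 to 27 exceeded those of introns 1 to 9 by a factor of 41.1, 98.2 and 92.5 in the Input GEMIN5 libraries. That factor was 2.88 to 4.2 in the 4 Input control, 6.0 to 17.5 in the 4 polysome control and 2.7 to 6.05 in the 4 polysome GEMIN5 libraries, so the Input GEMIN5 libraries lay above all others. These values have no test, and they rest on as few as 2 reads in single control libraries.

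**Figure D2:**
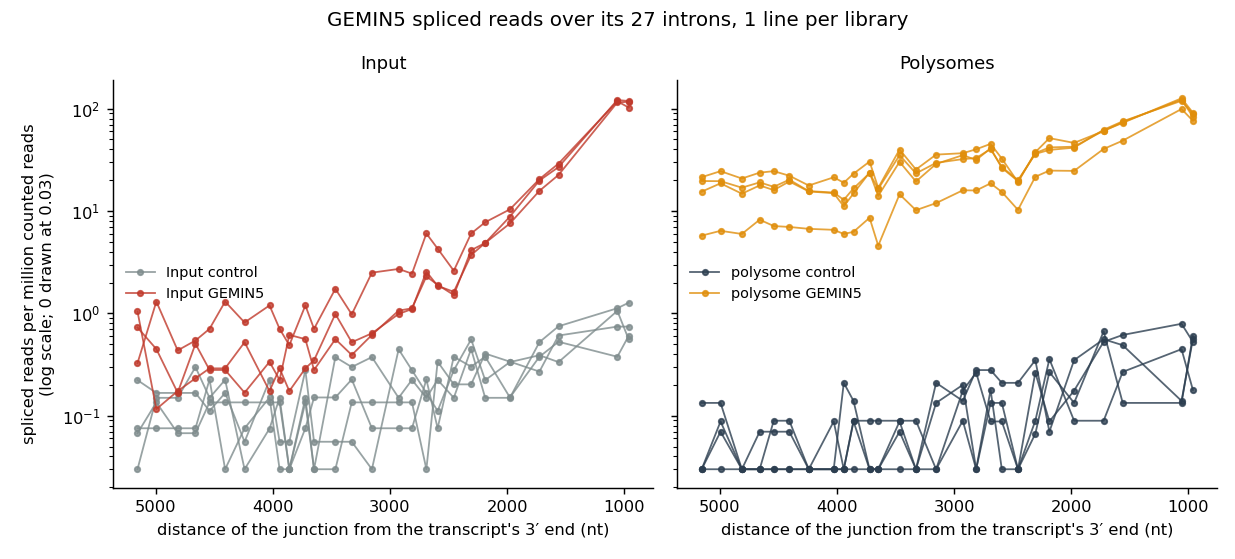
Spliced reads over each of the 27 GEMIN5 introns in RPM (log axis, 0 drawn at 0.03) against the distance of the junction from the transcript's 3′ end in nt, with 1 line per library. Input GEMIN5 lines fall from intron 27 to intron 1 by a larger factor than polysome GEMIN5 lines, and control lines lie far below them at the 3′ side.

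How much GEMIN5 differed between fractions depended on the region read. By gene counts the GEMIN5 effect was larger in polysomes than in Input by 0.63 (SE 0.25), short of the threshold (edgeR adjusted p = 0.056). In fits of spliced reads added after the data were seen, the difference was −0.57 (SE 0.40, edgeR adjusted p = 0.276) over intron 27 and 4.32 (SE 1.77, edgeR adjusted p = 0.0537) over intron 1. Within GEMIN5 cells, polysomes against Input gave −0.63 by gene counts (SE 0.17, edgeR adjusted p = 0.0035) and 1.20 with library size only. The same comparison was −1.65 (SE 0.14, edgeR adjusted p = 4.7e-11) over intron 27 and 2.92 (SE 0.48, edgeR adjusted p = 5.62e-05) over intron 1. These fits, over the 3′-most and the 5′-most intron of each gene, called 64.9% of 6666 and 60.2% of 4793 genes in that comparison, and 37.9% and 47.6% for the difference between fractions. In control cells GEMIN5 in polysomes against Input was −1.08 over intron 27 (SE 0.35, edgeR adjusted p = 0.0253) and −1.40 over intron 1 (SE 1.57, edgeR adjusted p = 0.598), where 22.1% and 17.6% of genes passed. The direction in GEMIN5 cells was therefore set by the scaling and by the end of the transcript that was read. Without the second Input GEMIN5 library the gene-count value was −0.44 and did not pass (adjusted p = 0.0548).

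Reads that cross from exon to intron were nearly absent. Over all 27 introns, unspliced reads were 0, 0, 0.0675 and 0 RPM in Input control and 0.0277, 0 and 0 in Input GEMIN5. In polysomes they were 0.0599, 0, 0.0391 and 0.132 in control and 0, 0, 0 and 0.0699 in GEMIN5. Every value lies under the limit that a count of 0 allows in its library (0.163 to 0.268 RPM), so a difference was not detectable at this depth. The exact two-sided permutation test gave p = 1.0 in Input, where the smallest possible p is 0.0571, and p = 0.371 in polysomes, where it is 0.0286. For 25 internal exons of GEMIN5-201 with an event in the table, inclusion in GEMIN5 cells was 99.9 to 100% over 1529 to 22748 corrected reads each. In control cells it was 100% for the same exons over 13 to 139 reads. A spliced read of the gene and a read of intron-free plasmid RNA have the same sequence across a junction and cannot be told apart here.

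SMN1 (ENSG00000172062, chr5:70925030-70953942, plus strand) encodes the hub protein that gives the complex its name, and SMN2 (ENSG00000205571, chr5:70049638-70078522, plus strand) is its copy. The principal annotated transcripts of both are 1536 nt long and differ at 2 bases. One of them, C6T counted from the 5′ end of the 54-nt eighth exon of these transcripts, lies 622 nt from the 3′ end. The other, G236A counted from the start of the last exon, lies 338 nt from it. The 54-nt exon is shown because that base lets reads be assigned to 1 copy, and the capital marks it (GRCh38, chr5:70951941-70951994 for SMN1 and chr5:70076521-70076574 for SMN2, both on the plus strand).
SMN1 54-nt exon: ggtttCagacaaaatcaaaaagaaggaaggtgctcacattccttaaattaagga
SMN2 54-nt exon: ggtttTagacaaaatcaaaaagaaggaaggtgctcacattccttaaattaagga
How the authors' counting treated reads that match both copies is not given in the sources used here, so the split between the copies is uncertain. No splicing event of the deposited table carries either name, so the inclusion of this exon and the spliced reads of both genes were not analysed here. Whether the changes of SMN1 and SMN2 below differ along the transcript was therefore not tested.

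SMN1 levels in Input control were 94.1, 81.6, 92.4 and 82.7 CPM, and in Input GEMIN5 45.2, 34.1 and 34.0 CPM. Polysome control libraries held 67.9, 102, 105 and 109 CPM, and polysome GEMIN5 libraries 94.6, 92.4, 102 and 95.1 CPM. All 3 Input GEMIN5 libraries lay below the other 12, while the polysome groups overlapped. SMN1 was 2.32-fold lower in Input (log2 −1.21, SE 0.16, edgeR adjusted p = 3.24e-06), and its log2 fold change in polysomes was 0.00 (SE 0.14, edgeR adjusted p = 0.999). The polysome effect minus the Input effect was 1.21 (SE 0.21, edgeR adjusted p = 0.00015). By gene counts that difference passed for 4 of the 7 members, positive for SMN1 and negative for GEMIN2, GEMIN4 and GEMIN6. Over all genes 37.3% passed (16.9% positive, 20.5% negative). The difference uses the same libraries as the Input and polysome comparisons and is not separate evidence.

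SMN2 was lower as well. It went from 48.0 to 54.7 CPM in the 4 Input control libraries to 39.4, 35.5 and 32.9 CPM in Input GEMIN5 (log2 −0.53, SE 0.13, edgeR adjusted p = 0.00177). In polysomes its log2 fold change was 0.04 (SE 0.11, edgeR adjusted p = 0.989). With the counts of the 2 copies summed, the log2 fold change was −0.92 in Input (SE 0.14, edgeR adjusted p = 2.75e-05) and 0.02 in polysomes (SE 0.13, edgeR adjusted p = 0.998). This sum needs no split between the copies, but reads that match both may be missing from it or counted more than once. SMN1 made up 61.3 to 63.3% of the summed counts in Input control and 48.9 to 53.4% in Input GEMIN5. In polysomes it made up 60.7 to 64.0% in control and 61.4 to 63.4% in GEMIN5 cells, so the Input GEMIN5 libraries again stood below the other groups. The share differed by −11.6 points in Input (exact two-sided permutation test, p = 0.0571, the smallest the design allows; 0.114 adjusted over the 2 fractions). In polysomes it differed by −0.38 points (exact p = 0.686).

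GEMIN2 (ENSG00000092208, chr14:39114285-39136973, plus strand) encodes the subunit that clasps the Sm proteins. Its Input levels were 80.1, 81.2, 78.8 and 71.7 CPM in control and 109.8, 127 and 118 CPM in GEMIN5 cells. Polysome levels were 60.6 to 77.9 CPM in control and 64.0 to 70.9 CPM in GEMIN5 cells. The Input groups did not overlap and the polysome groups did. The rise in Input was 1.52-fold (log2 0.60, SE 0.11, edgeR adjusted p = 0.000164). It did not pass without the second Input GEMIN5 library (0.31, adjusted p = 0.0928), and with library size only the sign turned to −0.69 (adjusted p = 1.24e-05).

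Read along the transcript, GEMIN2 fell off towards the 5′ end in Input. In RPM, the ratio of GEMIN5 to control cells was 0.792 (95% exact interval 0.692 to 0.905) over intron 9, 534 nt from the 3′ end. It was 0.563 (0.476 to 0.665) over intron 5 and 0.362 (0.309 to 0.424) over intron 1, 1167 nt from the 3′ end. On this scale the median gene by gene counts stood at 0.409, so intron 9 was above it, and the interval of intron 1 included it. A median over spliced reads is not given here, and it may differ from that value. In polysomes all 9 introns had ratios of 0.919 to 1.08. In the fits of spliced reads the Input log2 fold change was 0.52 over intron 9 (edgeR adjusted p = 0.00583) and −0.19 over intron 1 (edgeR adjusted p = 0.336), so the rise of GEMIN2 was seen at 1 end of the transcript and not at the other.

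**Figure D3:**
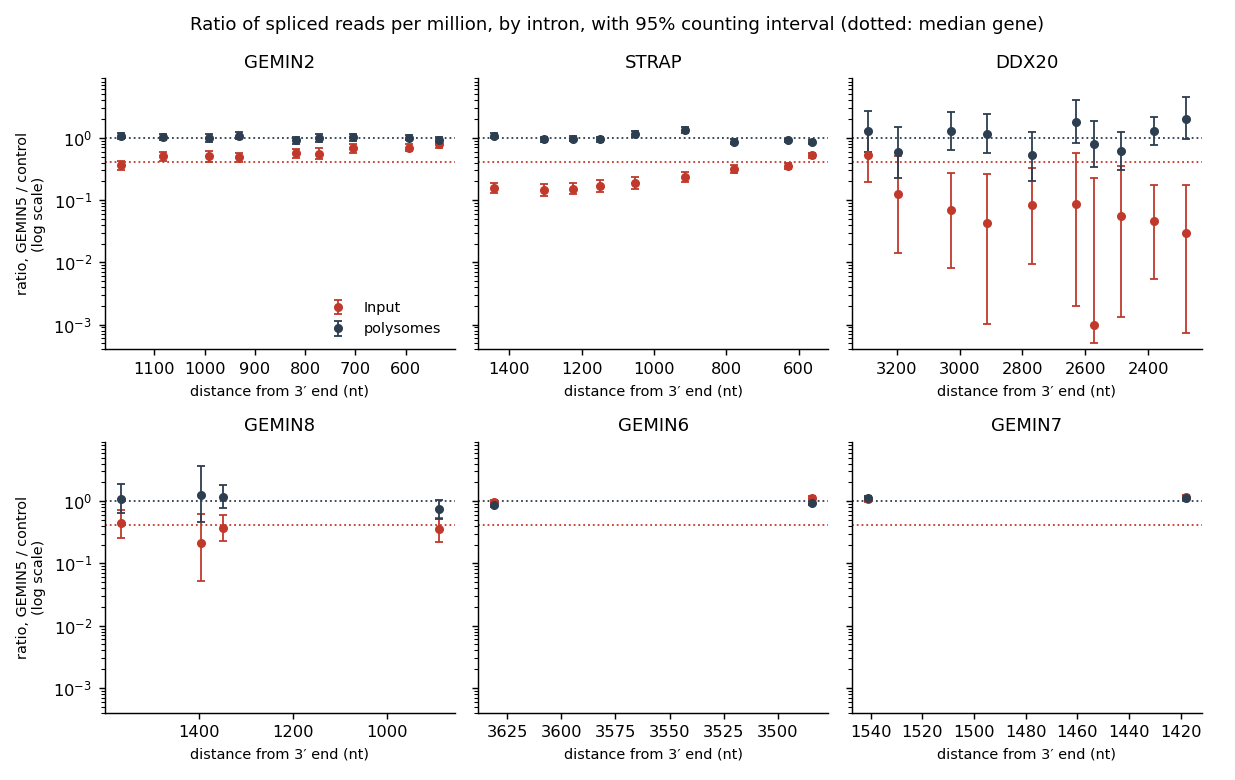
Ratio of GEMIN5 to control cells in RPM of spliced reads (log axis), for each intron of 6 members against its distance from the transcript's 3′ end in nt. Bars are 95% exact counting intervals and dotted lines the median gene by gene counts (0.409 in Input), not by spliced reads. In Input, STRAP goes from 0.527 at the 3′ side to 0.157 over intron 1, while its polysome ratios run from 0.864 to 1.32. DDX20 polysome ratios run from 0.525 to 2.04. DDX20 intron 7, with 0 Input GEMIN5 reads, is drawn at 0.001.

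DDX20 (ENSG00000064703, chr1:111754832-111775602, plus strand) encodes a DEAD-box RNA helicase, and GEMIN4 (ENSG00000179409, chr17:744421-753999, minus strand) its binding partner. DDX20 held 14.5, 17.4, 15.7 and 17.0 CPM in Input control and 13.5, 13.1 and 16.3 CPM in Input GEMIN5. These groups overlapped, and the log2 fold change of −0.18 (SE 0.20) did not pass (edgeR adjusted p = 0.491). In polysomes it held 7.68, 12.9, 12.5 and 13.1 CPM in control and 9.89, 10.7, 15.0 and 8.72 CPM in GEMIN5 cells, also with overlap (log2 −0.06, SE 0.18, edgeR adjusted p = 0.989). The junction reads of DDX20 differed from its gene counts. Of its 10 introns, intron 1, the farthest from the 3′ end, had 17 Input control and 8 Input GEMIN5 reads. The RPM ratio of intron 1 was 0.523 (95% exact interval 0.195 to 1.28), and the interval includes the median gene by gene counts at 0.409. The other 9 had ratios of 0.0 to 0.123. Over intron 10, 2280 nt from the 3′ end, the 4 Input control libraries had 38 spliced reads and the 3 Input GEMIN5 libraries 1. The RPM ratio was 0.0292 (95% exact interval 0.000721 to 0.173), against 2.04 (0.961 to 4.61) in polysomes, where 11 and 24 reads were seen. Each of the 10 DDX20 introns had 0 to 8 reads in Input GEMIN5. In the fit of spliced reads the Input log2 fold change over intron 10 was −3.95 (SE 0.99, edgeR adjusted p = 0.00136), and the difference between polysomes and Input was 4.97 (SE 1.19, edgeR adjusted p = 0.00141), where 37.9% of genes passed. The span of DDX20 also overlaps INKA2 and KCND3 on the other strand, and whether the counting used strand is not given in the sources used here.

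GEMIN4 held 25.6, 29.8, 25.9 and 30.2 CPM in Input control and 45.1, 42.4 and 38.5 CPM in Input GEMIN5, with no overlap. It was 1.51-fold higher (log2 0.59, SE 0.14, edgeR adjusted p = 0.00185). Without the second Input GEMIN5 library it did not pass (0.35, adjusted p = 0.0626), and with library size only it was −0.69 (adjusted p = 0.00448). Its single intron, 3619 nt from the 3′ end, had 33 reads in Input control and 2 in Input GEMIN5, a ratio of 0.0673 (0.00783 to 0.263) in RPM. The few reads over this intron and the gene counts of GEMIN4 moved apart in Input. In polysomes GEMIN4 held 9.97, 13.2, 14.2 and 15.8 CPM in control and 11.4, 11.2, 12.2 and 9.81 CPM in GEMIN5 cells. The groups overlapped (log2 −0.25, SE 0.14, edgeR adjusted p = 0.931).

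GEMIN6 and GEMIN7 encode a pair of small Sm-like proteins that bind each other, and GEMIN8 links the pair to SMN. GEMIN6 (ENSG00000152147, chr2:38751534-38785002, plus strand) held 105, 116, 103 and 96.8 CPM in Input control and 260.3, 316 and 291 CPM in Input GEMIN5. In polysomes it held 112, 116, 79.9 and 89.9 CPM in control and 100.3, 84.9, 76.2 and 115 CPM in GEMIN5 cells. The 3 Input GEMIN5 libraries lay above all 12 others. GEMIN6 was 2.75-fold higher in Input (log2 1.46, SE 0.15, edgeR adjusted p = 2.86e-07), the largest rise among the 7 testable members other than GEMIN5. With library size only it kept its sign at 0.16 but did not pass (adjusted p = 0.234). Its 2 introns gave ratios of 1.12 (95% exact interval 1.04 to 1.21) and 0.981 (0.904 to 1.06) in RPM in Input. Both were above the median gene by gene counts at 0.409. Both lie 3484 nt or more from the annotated 3′ end, a distance like that of the GEMIN4 intron, whose ratio was 0.0673.

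GEMIN7 (ENSG00000142252, chr19:45079195-45091518, plus strand) could not be read from gene counts, since its count was 0 to 4 per library. MARK4 (chr19:45079288-45305284) on the same strand covers most of its span, and together with PPP1R37 the same-strand overlap is 99.2%. The spliced reads over its intron 2, 1418 nt from the 3′ end, numbered 230, 330, 269 and 243 in Input control and 333, 427 and 368 in Input GEMIN5. A count near 0 for GEMIN7 is therefore not a lack of reads spliced over its intron. Whether some of these reads came from MARK4 transcripts was not tested. Scaled like the gene counts, these were 100.1, 104, 104 and 101 per 1000000 spliced reads in Input control, and 175, 260 and 222 in Input GEMIN5. In polysomes they were 130, 119, 121 and 109 in control and 148, 148, 111 and 137 in GEMIN5 cells. The Input groups did not overlap and the polysome groups did. The log2 fold change in this fit, in which 51.5% of 6666 genes passed in Input, was 1.10 (SE 0.14, edgeR adjusted p = 1.23e-07). With the total of spliced reads as the only scaling it was −0.27 (adjusted p = 0.0504). Against all counted reads, the scale used for the other introns above, the Input ratio was 1.17 (95% exact interval 1.07 to 1.27), so the sign depended on the denominator. In polysomes it was 0.18 (SE 0.13, edgeR adjusted p = 0.822), in a fit where 0.0450% of genes passed.

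GEMIN8 (ENSG00000046647, chrX:14006726-14029893, minus strand) held 11.5, 11.8, 12.1 and 13.1 CPM in Input control and 12.5, 18.8 and 14.8 CPM in Input GEMIN5. The groups overlapped (log2 0.33, SE 0.19, edgeR adjusted p = 0.153). In polysomes it held 4.95, 8.56, 8.49 and 9.55 CPM in control and 7.46, 6.58, 7.38 and 6.45 CPM in GEMIN5 cells, again with overlap (log2 −0.18, SE 0.18, edgeR adjusted p = 0.963).

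STRAP (ENSG00000023734, chr12:15882387-15903478, plus strand) encodes a WD-repeat protein bound to the complex through GEMIN7. It held 241, 243, 236 and 235 CPM in Input control, and 206, 167 and 204 CPM with GEMIN5. No value was shared between the groups, and the fall was small (log2 −0.31, SE 0.13, edgeR adjusted p = 0.0498). It did not pass with any of 5 of the 7 compared libraries left out singly, namely each Input control library or the third Input GEMIN5 library (adjusted p = 0.052 to 0.0913). Without the 2 Input control libraries that held hepatocyte transcripts its adjusted p was 0.0919. Polysome levels were 181, 231, 220 and 232 CPM in control and 209, 211, 245 and 191 CPM in GEMIN5 cells (log2 −0.01, SE 0.12, edgeR adjusted p = 0.998).

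The small fall of STRAP by gene counts covered a steep change along its transcript. In RPM, its Input ratio was 0.527 (95% exact interval 0.477 to 0.581) over intron 9, 562 nt from the 3′ end. It was 0.189 (0.15 to 0.235) over intron 5 and 0.157 (0.131 to 0.186) over intron 1, 1441 nt from the 3′ end. In polysomes the 9 introns had ratios of 0.864 to 1.32, and the fit over intron 1 gave 0.11 (SE 0.16, edgeR adjusted p = 0.992) where 0.0835% of genes passed. In the fits of spliced reads the Input log2 fold change was −0.07 over intron 9 (edgeR adjusted p = 0.694) and −1.40 over intron 1 (SE 0.21, edgeR adjusted p = 1.59e-06), where 59.2% of 4793 genes passed. The difference of the GEMIN5 effect between polysomes and Input over intron 1 was 1.51 (SE 0.26, edgeR adjusted p = 3.29e-05), while by gene counts it was 0.30 (SE 0.17, edgeR adjusted p = 0.194).

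Polysomes were also compared with Input within each kind of cell. In control cells, DDX20, GEMIN4 and GEMIN8 were lower in polysomes by gene counts, as was GEMIN5 (above). No member with testable gene counts was higher, where 43.2% of all genes passed (24.1% higher, 19.1% lower). Spliced reads of GEMIN7 gave 0.23 over its 3′-most intron (edgeR adjusted p = 0.221) and 0.41 over its 5′-most (edgeR adjusted p = 0.0449). In these fits of spliced reads 22.1% and 17.6% of genes passed. GEMIN4 was 2.1-fold lower (log2 −1.07, SE 0.13, edgeR adjusted p = 6.16e-06), GEMIN8 1.53-fold (log2 −0.62, SE 0.17, edgeR adjusted p = 0.0075) and DDX20 1.39-fold (log2 −0.48, SE 0.18, edgeR adjusted p = 0.037). For these 3 genes all 4 polysome libraries lay below all 4 Input libraries, and likewise for GEMIN5 and for STRAP, which did not pass (edgeR adjusted p = 0.336). The share of all genes without overlap was not computed. With library size only the 7 members numbered 4 higher and 1 lower, beside 6492 and 560 of all 12197 genes. GEMIN8 was then −0.097 (adjusted p = 0.674). Over its 3′-most intron GEMIN8 was −0.42 (edgeR adjusted p = 0.378). Over its 5′-most intron it was −1.10 (SE 0.39, edgeR adjusted p = 0.0498). Without the 2 Input control libraries with hepatocyte transcripts, GEMIN8 (adjusted p = 0.0702) and DDX20 (adjusted p = 0.145) did not pass, where 29.8% of all genes passed. DDX20 also failed without any 1 of 4 libraries (Input control 2, 3 or 4, or polysome control 1), with adjusted p of 0.061 to 0.104. The share of counts on ribosomal protein mRNAs differed between these fractions too, and its part in these values was not tested.

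In GEMIN5 cells, SMN1 was higher in polysomes than in Input (log2 1.34, SE 0.16, edgeR adjusted p = 4.38e-07), and SMN2 likewise (0.67, SE 0.13, edgeR adjusted p = 0.000128). GEMIN2, GEMIN4, GEMIN6 and GEMIN8 were lower, by 0.81, 1.91, 1.62 and 1.13 on the log2 scale. In this comparison 67.6% of all genes passed (32.6% higher, 35.0% lower). By spliced reads GEMIN8 was −0.17 over its 3′-most intron (edgeR adjusted p = 0.728) and −1.09 over its 5′-most (edgeR adjusted p = 0.0417). STRAP did not pass by gene counts (0.15, edgeR adjusted p = 0.303) or over its 3′-most intron (0.09, edgeR adjusted p = 0.551). Over its 5′-most intron STRAP was 1.37 (edgeR adjusted p = 1.84e-06). These fits called 64.9% and 60.2% of genes at the 3′-most and 5′-most intron. With library size only, GEMIN2, GEMIN6 and GEMIN8 turned to 1.00, 0.19 and 0.69, and GEMIN4 did not pass (−0.12, adjusted p = 0.586), while the median gene moved by 1.78. The 7 members then numbered 5 higher and 0 lower, against 1 and 4 with TMM scaling. Of all 12197 genes, 10310 were higher and 465 lower with library size only. SMN1 kept its direction under both scalings, as the plot of fold changes under 2 scalings shows.

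**Figure D4:**
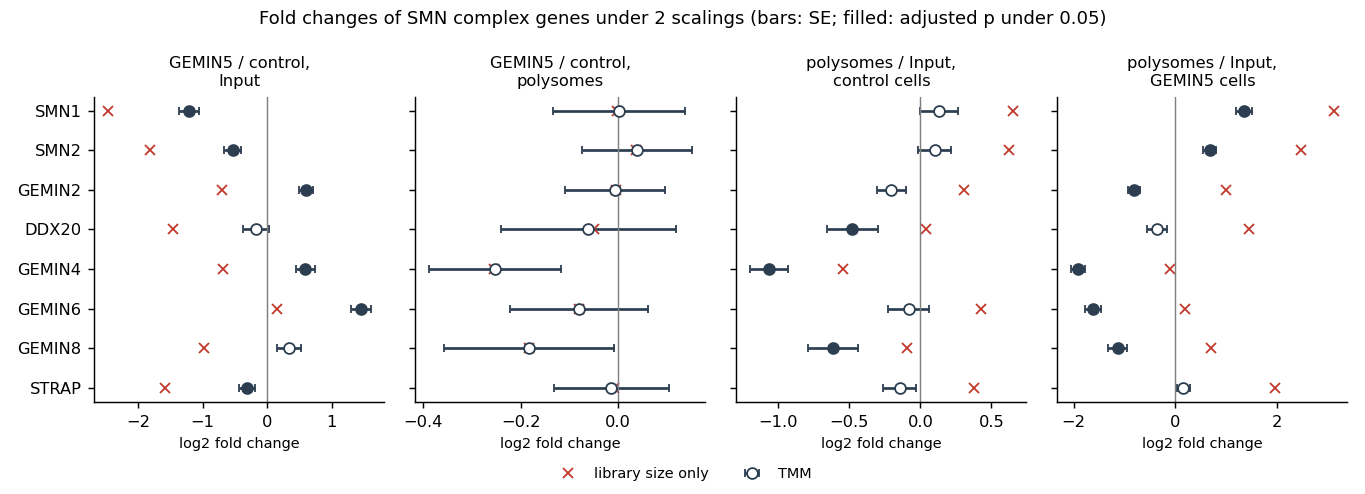
Log2 fold changes of 8 SMN complex genes in 4 comparisons, with TMM scaling (circles, bars are the SE, filled where the adjusted p is under 0.05) and with library size only (crosses). In polysomes the 2 scalings nearly coincide for all 8 genes, while in Input GEMIN2, GEMIN4 and GEMIN8 change sign.

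Levels of different genes were compared per kilobase of the principal transcript. This measure takes reads as spread evenly over the transcript, while spliced reads of GEMIN5 were denser at the 3′ side in all 4 groups (above). In Input control STRAP was highest at 128 ± 2.08 CPM per kb (SD, n = 4), followed by SMN1 at 57.1 ± 4.20 and GEMIN2 at 54.9 ± 3.005, whose ranges overlapped. SMN2 (34.0 ± 2.01) and GEMIN6 (28.2 ± 2.16) came next. GEMIN4 (7.44 ± 0.66) and GEMIN8 (7.21 ± 0.40) overlapped, and DDX20 (3.83 ± 0.31) and GEMIN5 (2.58 ± 0.32) were lowest. GEMIN5 was thus the scarcest of these mRNAs in untreated cells by this measure. By CPM not divided by length, GEMIN8 (mean 12.1) was below GEMIN5 (mean 13.9) in Input control, with overlapping ranges. In Input GEMIN5 libraries GEMIN5 was the most abundant per kb, at 265 ± 20.8 CPM per kb (SD, n = 3), above STRAP at 103 ± 11.8. There SMN1 (24.6 ± 4.19) stood below GEMIN2 (83.4 ± 6.08) and GEMIN6 (77.5 ± 7.48). In polysomes of GEMIN5 cells GEMIN5 was at 171 ± 34.6 (SD, n = 4) and STRAP at 115 ± 12.0. Their ranges overlapped there (119.9 to 191.7 against 102.3 to 131.1 CPM per kb).

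Other genes of the pathway were read as 4 lists. Sm proteins form the ring that the complex closes on the snRNA. Of 9 tested, 8 were higher and 0 lower in Input, where 27.1% of all genes were higher and 24.3% lower, with a median log2 fold change of 1.79 against −0.01 over all genes. SNRPG rose by 2.51 (SE 0.19, edgeR adjusted p = 1.54e-08), SNRPD2 by 2.10 (SE 0.20, edgeR adjusted p = 8.07e-08) and SNRPE by 2.04 (SE 0.16, edgeR adjusted p = 1.54e-08), and these 3 kept their sign with library size only (1.19, 0.78 and 0.75). With that scaling the list had 5 higher and 3 lower, where 605 of all 12197 genes were higher and 9270 lower. The methylosome, which methylates Sm proteins, had 1 higher and 2 lower of 5, a share near the 51.5% of all genes that passed, and 0 higher and 4 lower with library size only. COPRS rose by 1.53 (SE 0.19), RIOK1 fell by 0.93 (SE 0.22) and CLNS1A fell by 0.72 (SE 0.13), and with library size only COPRS was 0.21 (adjusted p = 0.168).

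Factors of snRNA export, cap modification, import and Cajal bodies had 1 higher and 6 lower of 11 in Input, beside 27.1% and 24.3% of all genes, with a median of −0.48. With library size only they had 0 higher and 11 lower, beside 605 and 9270 of all 12197 genes. Their median was then −1.77, against −1.29 over all genes. TGS1, which hypermethylates the snRNA cap, fell by 1.48 (SE 0.30, edgeR adjusted p = 0.000399), the import receptor KPNB1 by 1.22 (SE 0.36, edgeR adjusted p = 0.00867) and the Cajal body protein COIL by 1.14 (SE 0.24, edgeR adjusted p = 0.00065). The single higher one, RAN, stood at 0.31 on the edge of the threshold (adjusted p = 0.05) and at −0.99 with library size only. Among 6 translation and RNA partners of GEMIN5, 1 was higher and 2 lower, and 0 and 5 with library size only. The U1 protein SNRPC was higher (1.20, SE 0.15, edgeR adjusted p = 2.12e-06) but −0.10 with library size only. The cap-binding protein EIF4E (−1.78, SE 0.17, edgeR adjusted p = 9.27e-08) and SNRNP70 (−1.71, SE 0.25, edgeR adjusted p = 1.38e-05) were lower under both scalings. In polysomes, where 0.402% of all genes passed, edgeR called 0 of the 31 tested genes of these 4 lists, none had an unadjusted p under 0.05, and DESeq2 called 0.

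Of the deposited events, 10 of GEMIN2, GEMIN6, GEMIN7 and GEMIN8 had enough reads and variation to be tested in Input, and 12 in polysomes. GEMIN5, DDX20, GEMIN4 and STRAP had none. By limma none of the 10 passed in Input, where 4.29% of all 11928 events did, and 1 had an unadjusted p under 0.05. In polysomes none of the 12 passed or had an unadjusted p under 0.05, and 0 of all 17490 events passed. Inclusion is given as percent spliced in (PSI), the share of reads that include the exon.

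The largest difference was in GEMIN8, an 82-nt exon of its 5′ untranslated region (chrX:14026140-14026221). Its PSI was 39.1, 87.9, 48.6 and 56.2 in Input control and 85.7, 77.8 and 81.0 in Input GEMIN5. The second control library lay above all 3 GEMIN5 libraries, and each value rests on 13 to 31 corrected reads. The difference of 23.5 points did not pass (limma adjusted p = 0.277). Polysome control libraries had 33.3, 86.6, 48.7 and 87.5, and polysome GEMIN5 libraries 72.7, 68.4, 52.4 and 90.0, which overlapped. Without the second Input control library it passed (log2 odds difference 2.08, limma adjusted p = 0.0432), so 1 library decided this call.

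GEMIN2 has a 59-nt coding exon (exon 9 of GEMIN2-202, chr14:39133661-39133719, plus strand), whose length is no multiple of 3. Its sequence is shown because it held the largest PSI difference of its gene in Input (GENCODE release 29, GRCh38, no base marked).
GEMIN2 59-nt exon: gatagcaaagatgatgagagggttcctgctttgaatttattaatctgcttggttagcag
The PSI of the GEMIN2 exon was 92.7, 92.0, 90.3 and 92.6 in Input control and 85.1, 88.5 and 85.8 in Input GEMIN5, on 149 to 230 corrected reads. These groups did not overlap, but the difference of −5.43 points did not pass (limma adjusted p = 0.241). In polysomes it was 84.1 to 90.6 in control and 85.9 to 90.0 in GEMIN5 cells.

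GEMIN7 has alternative donor sites in its first exon, and the main one (at chr19 position 45079377) was used in 70.0 to 71.9% of reads in Input control and 68.5 to 79.7% in Input GEMIN5 (limma adjusted p = 0.58). In polysomes it was used in 70.5 to 81.4% and 74.6 to 80.2%. The ranges overlapped in both fractions, and the event passed the test in neither.

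**Figure D5:**
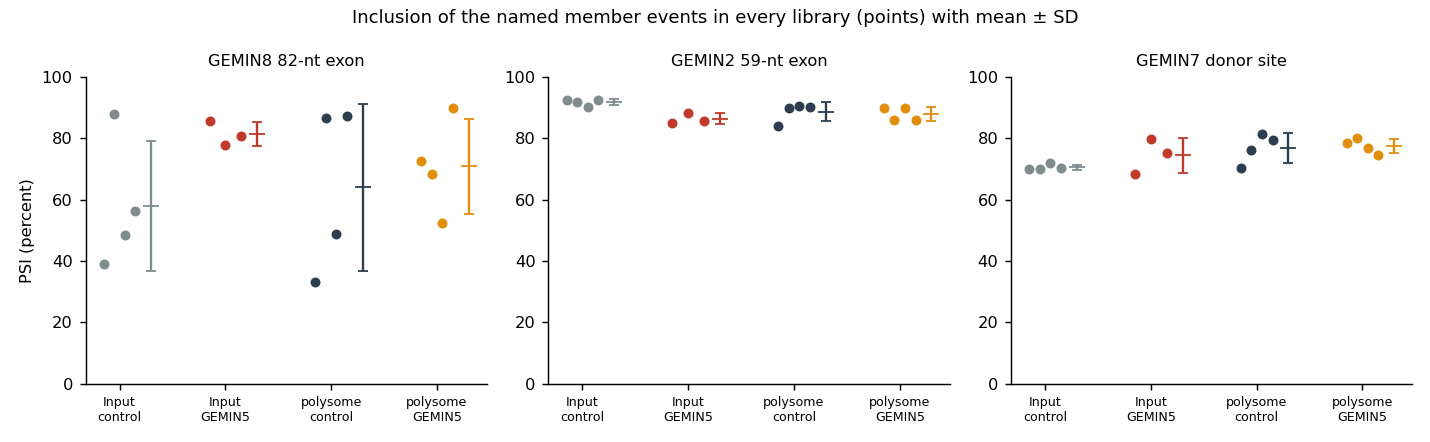
PSI in percent of the event with the largest Input difference in each of GEMIN8, GEMIN2 and GEMIN7, in every library of the 4 groups. Points are libraries, and bars are the mean ± SD. GEMIN8 control libraries spread from 33.3 to 87.9, while the GEMIN2 exon stays between 84.1 and 92.7.

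The genes whose levels ran most like GEMIN5 over the 15 libraries, among 7838 genes with a mean of at least 5 CPM, were SAMD11 (Pearson r = 0.91), GDF15 (0.91), CRIP2 (0.88), ZNF79 (0.86) and CARMIL2 (0.83), on log2 CPM. The libraries share their groups, so these values mostly reflect group means. GDF15, a stress-induced cytokine, averaged 1.17 CPM in Input control, 19.7 in Input GEMIN5, 0.682 in polysome control and 4.15 in polysome GEMIN5. SAMD11 averaged 18.2, 29.9, 17.3 and 24.5 CPM in the same order. No member of the complex was among the 5. Between pairs of members, r ran from −0.95 (SMN1 with GEMIN6) to 0.95 (GEMIN2 with GEMIN6) over the 15 libraries.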

How the data were processed

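Reads per gene were deposited as raw counts for 15 libraries, made with STAR 2.7.10a and featureCounts on GRCh38 per the submitters' processing notes. The libraries came from a stranded kit per the labels' protocols, while the counting options, including strand and reads with several matches, are not given in those sources. Inclusion of each splicing event is a deposited percentage, percent spliced in (PSI), with a text field that, per the file headers, belongs to each PSI value and holds read numbers. From that field the corrected reads, spliced reads over junctions and exon-intron border reads were taken.

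Gene counts of all 15 libraries were tested in 1 fit with edgeR 4.0.16 (quasi-likelihood, robust, TMM scaling, filterByExpr) in R 4.3.3, with Benjamini-Hochberg adjustment over 12197 genes and a threshold of 0.05. Events with 10 or more corrected reads in each library compared, and a PSI that reached 5 and fell to 95, were tested with limma 3.58.1 on log2 odds with an offset of 0.5. Single measures used exact permutation tests (SciPy 1.17.1). DESeq2 1.42.0 was an alternative, and the scripts were tested on simulated data. Ratios of summed reads carry exact 95% intervals, and the limit for a count of 0 is 3 counts. The annotation and sequences are those of GENCODE release 29.

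The members and gene lists were chosen with earlier results of these data known, and the fits of spliced reads, the summed SMN copies and the fit without 2 Input control libraries were added after seeing the data. All members are named, with at most 3 called genes per list and direction, the 5 genes most like GEMIN5 (log2 CPM, prior count 2) and the event with the largest PSI difference of each gene, of which 1 is not reported here. No library was left out of the main results.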

Additional observations from a re-analysis of the deposited data

Results flagged for a closer look

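Of 45 group values examined for a library far from the rest of its group, 8 stood out, where chance gives about 1 in 20. GEMIN5 was at 646.9 CPM in polysome GEMIN5 replicate 4, below the other 3 libraries. DDX20 was at 7.681 CPM in polysome control replicate 1, again the lowest. The SMN1 share of SMN1 and SMN2 counts was 61.26% in Input control replicate 2 and 60.67% in polysome control replicate 1, each the lowest of its group. Unspliced GEMIN5 reads were 0.06749 per 1000000 counted reads in Input control replicate 3, from 1 read, and 0.06987 in polysome GEMIN5 replicate 4, with 0 in the other libraries of both groups. The GEMIN2 59-nt exon had a PSI of 84.09 in polysome control replicate 1, and the GEMIN7 donor site 71.87 in Input control replicate 3. Polysome control replicate 1 thus appears in 3 of the 8.

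The GEMIN5 effect differed between polysomes and Input, by the test of that difference itself, for 6 genes. This test passed for 37.3% of all genes by gene counts, and for 37.9% by spliced reads of the 3′-most intron, used for GEMIN7. The polysome effect minus the Input effect was positive for SMN1 (1.2132, edgeR adjusted p = 0.00015) and SMN2 (0.5732, edgeR adjusted p = 0.0127). It was negative for GEMIN2 (−0.6091, edgeR adjusted p = 0.00383), GEMIN4 (−0.8452, edgeR adjusted p = 0.00235), GEMIN6 (−1.5379, edgeR adjusted p = 1.89e-05) and the spliced reads of GEMIN7 (−0.9135, edgeR adjusted p = 0.00035). With library size only GEMIN2, GEMIN4 and GEMIN7 changed sign (0.69, 0.43 and 0.42), and GEMIN6 did not pass (−0.24, edgeR adjusted p = 0.201). Without Input GEMIN5 replicate 2, GEMIN2 did not pass (−0.32, edgeR adjusted p = 0.212). STRAP passed with DESeq2 (0.38, DESeq2 adjusted p = 0.0233), and GEMIN8 without polysome control replicate 1 (−0.68, edgeR adjusted p = 0.0161).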

How the results depend on the processing

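Scaling changed more values than any other choice. With library size only, Input values turned to −0.69 for GEMIN2, −0.69 for GEMIN4, −0.98 for GEMIN8 and −0.27 for GEMIN7 spliced reads. The difference between fractions turned to 0.69 for GEMIN2, 0.43 for GEMIN4, 0.79 for GEMIN8 and 0.42 for GEMIN7. Polysomes against Input turned, in control cells, to 0.31 for GEMIN2, 0.041 for DDX20, 0.43 for GEMIN6 and 0.37 for STRAP. In GEMIN5 cells it turned to 1.20 for GEMIN5, 1.00 for GEMIN2, 1.46 for DDX20, 0.19 for GEMIN6, 0.69 for GEMIN8 and 1.09 for GEMIN7. Members other than GEMIN5 then numbered 0 higher and 6 lower in Input, against 3 and 2, beside 605 higher and 9270 lower of all genes. RLE scaling, and TMM without ribosomal protein, histone and mitochondrial genes, gave 3 and 2 as well.

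With spliced reads in place of gene counts, polysomes against Input in GEMIN5 cells was 3.02 for DDX20 over its 3′-most intron. Over 5′-most introns it was 2.92 for GEMIN5 and 0.10 for GEMIN2, whose Input value was −0.19 and whose difference between fractions was 0.26. The cause was not tested. The GEMIN5 difference between fractions passed in 8 settings (0.68 to 1.94, adjusted p from 1.27e-05 to 0.0393): RLE, library size only, TMM without ribosomal protein, histone and mitochondrial genes, no filter, DESeq2, and without Input GEMIN5 replicate 2, polysome control replicate 4 or polysome GEMIN5 replicate 4.

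In polysomes 1 member, GEMIN5 itself, was called, and 0 with GEMIN5 taken out of the table. Member events called in Input were 0 to 2 with 1 library left out. Without Input control replicate 1 a pair of GEMIN5 donor events passed (log2 odds ±7.59, limma adjusted p = 0.0171 and 0.0177, 1.64% of events called), resting on 1 read of the other donor in Input control replicate 3. Without the 2 Input control libraries with hepatocyte transcripts, polysomes against Input in control cells had 2 members called, against 4. The share of all genes that passed was 29.8%, against 43.2%, so calls were fewer among all genes too.

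Same-numbered libraries did not deviate together (21 pairs, correlation −0.56 to 0.49, 4 over 0.1), so the numbers were not taken as pairing. With a replicate block 5 members passed in Input, against 6, with STRAP lost (−0.32, edgeR adjusted p = 0.0736), and 1, 4, 4 and 6 in the other 4 comparisons, with 0 events in both fractions. The share of all genes that passed with this block was not computed, so these counts are not read as results about the members. Depth limits the junctions of GEMIN5 in control cells, with 0 to 50 reads per group and intron, and those of GEMIN8, DDX20 and GEMIN4, with at most 88.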

Other observations

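The 4 pathway lists were also read between fractions. In control cells 11 of 31 genes differed between polysomes and Input by edgeR (43.2% of all genes passed). The cap-binding subunit NCBP2 was higher in polysomes (0.76, SE 0.11, edgeR adjusted p = 1.61e-05), as was the snRNA export adaptor PHAX (0.58, SE 0.16, edgeR adjusted p = 0.00549), and both kept their sign with library size only (1.28 and 1.10). The ribosomal protein mRNAs RPL3 (−1.13, SE 0.14, edgeR adjusted p = 3.83e-06) and RPL4 (−1.23, SE 0.15, edgeR adjusted p = 5.79e-06) were lower, and stayed lower with library size only (−0.61 and −0.72). PRMT5, the methyltransferase of the methylosome, was lower as well (−1.04, SE 0.16, edgeR adjusted p = 4.62e-05; −0.51 with library size only).

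In GEMIN5 cells EIF4E was higher in polysomes than in Input (2.21, SE 0.17, edgeR adjusted p = 2.61e-09), and the Sm protein mRNAs SNRPG (−2.58, SE 0.19, edgeR adjusted p = 1.79e-09) and SNRPE (−2.29, SE 0.16, edgeR adjusted p = 6.87e-10) were lower. These 3 kept their sign with library size only (3.98, −0.76 and −0.49).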
